A study of Homo sapiens with 6 samples.

Results

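The hypoxia response genes described here were 10 genes picked by symbol from the deposited count table, which listed 26334 genes: HIF1A, EPAS1, VEGFA, EGLN1, EGLN3, CA9, CA12, ADM, NDRG1 and BNIP3. All 10 passed the filter on low counts that left 16117 genes for testing. They were measured by RNA-seq of poly-A RNA in MCF10DCIS.com, a human breast cancer cell line of the MCF10 series that grows in mice as lesions resembling ductal carcinoma in situ. The 3 control libraries (shLuc) came from cells carrying a U6-driven hairpin against luciferase, and the 3 silenced libraries (shWDR5) from cells carrying a hairpin vector against WDR5, a core subunit of histone H3K4 methyltransferase complexes. Cells of both groups carried the same vector backbone with TagRFP and puromycin resistance under the UbiC promoter, were selected in 3 µg/ml puromycin, and were grown in DMEM/F12 medium with horse serum. The study's methods describe WDR5 hairpins used as a pool in this line, so single hairpins could not be compared. The oxygen tension and density of the cultures are not given in the sources used here. The labels did not say whether replicates were separate cultures, so the p-values measure the spread between these samples, which may be technical.

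Cells sense oxygen through the hypoxia-inducible factors (HIFs). When oxygen is present, prolyl hydroxylases of the EGLN family mark the HIF alpha subunits, and the VHL ubiquitin ligase then directs their degradation. When oxygen falls, the alpha subunits accumulate, pair with ARNT and bind the letters ACGTG or GCGTG in regulatory DNA of genes for angiogenesis, glycolysis, acid handling and mitophagy. HIF alpha protein is controlled mainly by its stability, which RNA levels do not measure. In breast cancer, CA9 and other genes of this set are widely used as tissue markers of hypoxia.

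WDR5 itself was lower in shWDR5 cells. Its level was 16.5, 15.2 and 16.1 RPKM (reads per kilobase of exon, scaled to library size) in the shLuc libraries and 7.34, 7.65 and 6.52 RPKM in the shWDR5 libraries. This gave a log2 fold change of -1.15 ± 0.07 (SE, n = 3 per group, edgeR quasi-likelihood test, adjusted p = 8.67e-07). The libraries held between 38218108 and 57640167 counts, and the 10 most abundant genes took 5.74% to 6.09% of counts in shLuc and 7.67% to 8.16% in shWDR5. All 10 epithelial markers examined were above 1 RPKM. Of the 10, 5 were called higher (KRT5, KRT6A, KRT14, KRT17 and TP63) and 2 lower (EPCAM and CDH1), while KRT8, KRT18 and ITGA6 were not called. Mean CDH1 was 103.0 RPKM in shLuc and 50.3 RPKM in shWDR5. The summed level of the 10 was 4137 to 4373 RPKM in shLuc and 5536 to 6150 RPKM in shWDR5. KRT17, the most abundant, had means of 1372 RPKM in shLuc and 2624 RPKM in shWDR5. Markers of fibroblasts summed to 16.5 to 19.6 RPKM in shLuc and 13.4 to 13.9 RPKM in shWDR5. Those of leukocytes summed to 8.73 to 10.2 RPKM in shLuc and 8.31 to 9.48 RPKM in shWDR5. Those of endothelial cells summed to 1.86 to 1.95 RPKM in shLuc and 1.44 to 1.56 RPKM in shWDR5. Of these, LUM and CD3E had no count in any library. FAP (14.4 RPKM in shLuc and 10.8 RPKM in shWDR5) and COL1A1 (3.72 and 2.63 RPKM) were the only 2 of 8 fibroblast markers above 1 RPKM, and both were called lower. CD68 and LYZ were the only 2 of 8 leukocyte markers above 1 RPKM and did not pass the test, while ITGAM was called higher and CD14 lower, both below 1 RPKM. Of 6 endothelial markers, 3 were tested. PECAM1 was called lower (1.46 RPKM in shLuc and 0.89 RPKM in shWDR5), and CDH5 was not called. ESAM was called higher, on only 14, 8 and 11 counts in shLuc and 29, 35 and 28 in shWDR5. The part of these differences in the hypoxia results was not tested.

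WDR5 silencing was accompanied by higher transcript levels of 8 of the 10 hypoxia response genes and a lower level of 1, EPAS1. NDRG1 did not pass the test. The largest increases were those of BNIP3, a mitophagy receptor, and ADM, a vasodilator peptide, which were 2.21-fold and 2.09-fold higher in shWDR5. The smallest of the 8 was that of VEGFA, the principal angiogenic growth factor, at 1.13-fold. Among all genes tested, 26.6% were called higher in shWDR5 and 29.9% lower (edgeR, adjusted p under 0.05, two-sided), or 56.5% in either direction, so that a call at this threshold was common. The median log2 fold change was 0.44 over the 10 genes and -0.01 over all genes tested. A stricter rule also asked for an absolute log2 fold change of at least 0.6 and more than 0.5 RPKM in either group. Under it, BNIP3, ADM, EGLN3 and EGLN1 remained called higher and EPAS1 lower. EGLN3 met the level minimum only in shWDR5, the group where it was higher (0.80 RPKM, against 0.45 RPKM in shLuc). The stricter rule called 7.9% of all genes tested higher and 10.5% lower. For every one of the 10 genes, the RPKM of the shLuc and shWDR5 libraries did not overlap, with shWDR5 above in 9 and below in 1. Over all genes tested, 29.9% were without overlap with shWDR5 above and 32.4% with shWDR5 below, 62.3% in all. RNA-seq of pooled cells cannot tell apart a change in the RNA of every cell from a change in the share of cells that express a gene.

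**Figure D1:**
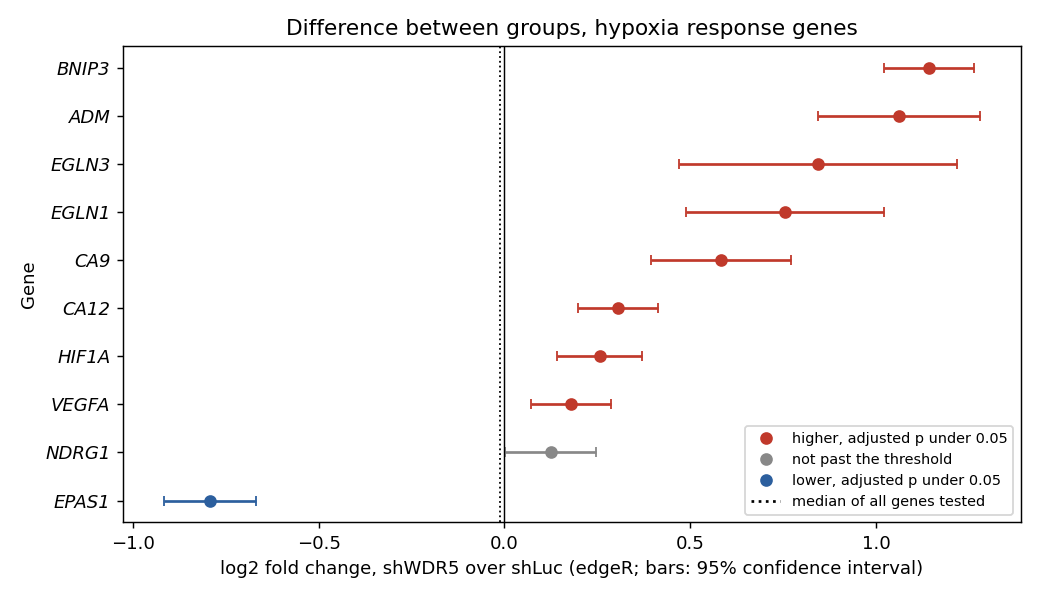
Log2 fold change of each hypoxia response gene, shWDR5 over shLuc (x axis), with its 95% confidence interval from edgeR and the genes in rows. BNIP3 and ADM lie furthest to the right at 1.14 and 1.06, EPAS1 alone lies on the left at -0.79, and the interval of NDRG1 reaches down to 0.00 (drawn in grey because its adjusted p was 0.0783).

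The promoters of the genes were searched for the HIF core letters. RefSeq promoter sequences (GRCh38.p14) matched 8 of the 10 genes by symbol. No entry matched VEGFA or NDRG1, so their promoters were not read. The 250 bases before each start were read on both strands for ACGTG and GCGTG. With every listed start counted, at least 1 of the 2 motifs stood in 7 of the 9 windows of these genes (77.8%), against 52.9% of the 16503 windows of genes tested here and 43.2% of all 35116 windows. The share of G and C, which ran from 31.2% to 81.6% over the 9 windows, was not matched in this comparison. HIF1A had 2 listed starts, and the window of the second held neither motif, as did that of EGLN3. The rarer ACGTG was found in 3 promoters of the set, those of EGLN1, CA9 and BNIP3, and in 21.5% of the windows of genes tested. The 60 bases around it are shown for these 3 genes, 5′ to 3′ on the strand of the gene, with every copy of either motif in capitals (CACGT and CACGC are the same motifs on the other strand). The EGLN1 stretch is chr1:231422288-231422347 (minus strand), that of CA9 is chr9:35673868-35673927 (plus strand) and that of BNIP3 is chr10:131982025-131982084 (minus strand).
EGLN1: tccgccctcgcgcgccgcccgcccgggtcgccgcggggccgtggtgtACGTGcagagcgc
CA9: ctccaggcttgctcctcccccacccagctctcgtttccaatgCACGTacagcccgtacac
BNIP3: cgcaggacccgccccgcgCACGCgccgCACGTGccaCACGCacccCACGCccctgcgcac
The motif began 13 bases before the start of EGLN1, 18 before that of CA9 and 134 before that of BNIP3. In BNIP3 the letters CACGTG read as ACGTG on both strands, so its 2 copies overlap. GCGTG occurred a further 4 times in the 250-base window of BNIP3, not all of them wholly within the 60 bases shown. HIF1A (first start), EPAS1, CA12 and ADM held 1 GCGTG each and no ACGTG. EPAS1, the gene that was lower, and CA12, which was higher, therefore had the same motif count. EGLN1, CA9 and BNIP3, with ACGTG, were higher in shWDR5, as were HIF1A, EGLN3, CA12 and ADM without it. These matches describe letters in a short window and were not tested for binding.

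Of the HIF alpha subunit genes, HIF1A and EPAS1 moved in opposite directions. HIF3A, at 0.14 RPKM in shLuc and 0.12 RPKM in shWDR5, did not pass the test. HIF1A, which encodes HIF-1 alpha, lies on chromosome 14 (62162119 to 62214977, plus strand, hg19). Its level was 170.1, 170.3 and 182.9 RPKM in shLuc and 204.7, 213.8 and 206.6 RPKM in shWDR5. Every shWDR5 library was above every shLuc library, and the log2 fold change was 0.26 ± 0.05 (SE, adjusted p = 0.00168). At least as high a log2 fold change was found in 27.3% of all genes tested. HIF1A was the most abundant gene of the set in both groups, and its level averaged over both was above that of 98.3% of all genes tested. Exons of HIF1A overlap those of the antisense genes HIF1A-AS1 and HIF1A-AS2, which held at most 22 counts in any library against 29018 or more for HIF1A. The largest shared stretch, with HIF1A-AS2, was 1221 bases, beside 4395 exon bases of HIF1A. Whether strand was used in counting is not given. The effect of this overlap on the level of HIF1A, its rank and its ratio to EPAS1 is therefore unknown.

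EPAS1, which encodes HIF-2 alpha, lies on chromosome 2 (46524541 to 46613842, plus strand, hg19). Its level was 34.5, 37.4 and 35.6 RPKM in shLuc and 19.96, 21.5 and 20.6 RPKM in shWDR5. The 3 shWDR5 libraries lay close together and far below the controls, with a log2 fold change of -0.79 ± 0.06 (SE, adjusted p = 1.54e-06). In 7.45% of all genes tested the log2 fold change was this low or lower. HIF1A transcript exceeded that of EPAS1 by 4.87-fold in shLuc and by 10.1-fold in shWDR5 (geometric means of the RPKM ratio within each library). On the log2 scale the ratio of EPAS1 to HIF1A was -2.28 ± 0.09 (SD, n = 3) in shLuc and -3.33 ± 0.02 (SD, n = 3) in shWDR5. The difference of -1.05 gave p = 0.1 in the two-sided exact permutation test, which is the smallest p that 3 against 3 samples allow.

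The oxygen sensors EGLN1 and EGLN3 were both higher in shWDR5. EGLN1 encodes PHD2, the main prolyl hydroxylase of HIF alpha, and is itself a HIF target; it lies on chromosome 1 (231499497 to 231560790, minus strand, hg19). Its level was 6.71, 8.86 and 8.39 RPKM in shLuc and 11.2, 14.4 and 14.8 RPKM in shWDR5. Replicate 1 was the lowest library in each group, but the groups did not overlap. The log2 fold change was 0.75 ± 0.12 (SE, adjusted p = 0.000363), with a 95% confidence interval of 1.40-fold to 2.03-fold.

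EGLN3 encodes PHD3, a prolyl hydroxylase that HIF induces strongly in many cell types, and lies on chromosome 14 (34393421 to 34420284, minus strand, hg19). It was the least abundant gene of the set, with 49, 43 and 64 counts in shLuc and 103, 124 and 98 in shWDR5. These correspond to 0.36, 0.41 and 0.58 RPKM in shLuc and to 0.82, 0.80 and 0.79 RPKM in shWDR5. The control libraries were the more scattered, with a coefficient of variation of 25.6%, against 1.44% in shWDR5. With 3 libraries a group and counts this low, these 2 values are poorly known and show no difference in precision between the groups. The log2 fold change was 0.84 ± 0.17 (SE, adjusted p = 0.00159), and its interval of 1.38-fold to 2.33-fold was the widest of the 10 genes. EGLN1 transcript was 17.9-fold more abundant than that of EGLN3 in shLuc and 16.6-fold in shWDR5. The log2 ratio of EGLN3 to EGLN1 was -4.16 ± 0.30 (SD, n = 3) and -4.05 ± 0.24 (SD, n = 3), a difference within the spread between libraries (two-sided exact permutation test, p = 0.6). The sign of this difference turned without shLuc replicate 2, without shWDR5 replicate 1, or when 0.5 RPKM was added to each level.

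Among the secreted products, ADM and VEGFA were both higher in shWDR5, by very different amounts. ADM encodes adrenomedullin, a peptide that dilates vessels and acts on endothelial cells, and lies on chromosome 11 (10326527 to 10328949, plus strand, hg19). Its level was 3.65, 4.12 and 4.68 RPKM in shLuc and 8.54, 8.21 and 9.18 RPKM in shWDR5. The lowest silenced library thus stood well above the highest control, and the log2 fold change was 1.06 ± 0.10 (SE, adjusted p = 8.84e-06). Of all genes tested, 4.81% had a log2 fold change at least this high.

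VEGFA lies on chromosome 6 (43737946 to 43754223, plus strand, hg19). Its level was 76.0, 73.9 and 72.6 RPKM in shLuc and 84.1, 82.9 and 85.0 RPKM in shWDR5. The groups did not overlap, but the gap was small, with a log2 fold change of 0.18 ± 0.05 (SE, adjusted p = 0.00874). A log2 fold change at least this high was found in 33.2% of all genes tested, so the change of VEGFA was an ordinary one for this comparison. VEGFA transcript was already abundant in control cells, above 95.2% of genes tested when averaged over both groups.

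The carbonic anhydrases CA9 and CA12, membrane enzymes with an extracellular active site that hydrate carbon dioxide and help tumor cells export acid, were both higher in shWDR5. CA9 lies on chromosome 9 (35673915 to 35681154, plus strand, hg19), and its level was 14.7, 13.5 and 12.7 RPKM in shLuc and 21.96, 20.8 and 18.4 RPKM in shWDR5. All silenced libraries were above all controls, with a log2 fold change of 0.58 ± 0.08 (SE, adjusted p = 0.000201). CA12, which in breast cells is also under estrogen receptor control, lies on chromosome 15 (63615730 to 63674309, minus strand, hg19). Its level was 32.8, 32.2 and 32.7 RPKM in shLuc and 40.8, 40.3 and 39.7 RPKM in shWDR5. It was the most tightly measured gene of the set in shLuc (coefficient of variation 0.88%), and its log2 fold change was 0.31 ± 0.05 (SE, adjusted p = 0.000342). CA12 transcript remained the more abundant of the pair, by 2.40-fold in shLuc and 1.98-fold in shWDR5. The log2 ratio of CA9 to CA12 was higher in shWDR5 by 0.28, which gave p = 0.1 in the two-sided exact permutation test, again the smallest value possible.

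BNIP3 showed the largest difference of the set. It encodes an outer mitochondrial membrane protein of the BCL2 family that tethers mitochondria to the autophagy machinery, and lies on chromosome 10 (133781187 to 133795517, minus strand, hg19). Its level was 37.3, 38.4 and 38.3 RPKM in shLuc and 82.0, 82.2 and 87.7 RPKM in shWDR5. The replicates of each group differed little beside the gap between groups, and the log2 fold change was 1.14 ± 0.05 (SE, adjusted p = 1.80e-07). In 4.24% of all genes tested the log2 fold change was at least this high.

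NDRG1, an iron- and hypoxia-responsive gene described as a metastasis suppressor, lies on chromosome 8 (134249414 to 134309547, minus strand, hg19). Its level was 39.4, 39.5 and 36.2 RPKM in shLuc and 42.4, 42.3 and 40.9 RPKM in shWDR5. The lowest silenced library was just above the highest control. The log2 fold change of 0.12 ± 0.06 (SE) did not pass the threshold (adjusted p = 0.0783), and the 95% confidence interval of the fold change ran from 1.00 to 1.19. The call depended on the libraries and the fit: the log2 fold change was 0.16 (edgeR, adjusted p = 0.0489) without shLuc replicate 1 and 0.08 (adjusted p = 0.23) without shLuc replicate 3, and with all libraries and a replicate block it was 0.13 (adjusted p = 0.0147).

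The order of the 10 genes by RPKM was led by HIF1A and VEGFA in both groups and ended with CA9, EGLN1, ADM and EGLN3 in both. In shLuc, NDRG1, BNIP3 and EPAS1 followed VEGFA at 38.4 ± 1.88, 38.0 ± 0.62 and 35.8 ± 1.47 RPKM (SD, n = 3), and neighbours among these 3 overlapped in their ranges. In shWDR5, BNIP3 had reached the level of VEGFA, at 83.9 ± 3.22 and 84.0 ± 1.10 RPKM (SD, n = 3), with overlapping ranges. EPAS1 had dropped below CA12 to the level of CA9, at 20.7 ± 0.75 and 20.4 ± 1.81 RPKM (SD, n = 3), again with overlapping ranges. All other neighbours in either order did not overlap.

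The machinery that acts on the HIF alpha subunits was examined as a list of 18 further genes, of which 7 were called higher, 4 lower and 7 were not called. These were 38.9% higher and 22.2% lower, beside 26.6% and 29.9% of all genes tested. Their median log2 fold change was 0.04. HIF1AN, which encodes the asparaginyl hydroxylase FIH that blocks binding of HIF to its coactivators, was 14.7, 13.7 and 13.6 RPKM in shLuc and 8.46, 8.04 and 7.90 RPKM in shWDR5. Its log2 fold change of -0.78 ± 0.06 (SE, adjusted p = 2.17e-06) was the lowest of the list. The coactivators EP300 and CREBBP, which bind the HIF alpha subunits, were higher, with log2 fold changes of 0.43 and 0.43 (adjusted p = 0.000104 and 9.28e-05). CITED2, which competes with HIF alpha for these coactivators, was also higher, with a log2 fold change of 0.51 (adjusted p = 0.00027).

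Among the partner subunits, ARNT rose from 9.34 ± 0.10 to 10.6 ± 0.23 RPKM (SD, n = 3), a log2 fold change of 0.18 (adjusted p = 0.014). Its paralog ARNT2 was less abundant and fell, from 2.13 ± 0.14 to 1.25 ± 0.05 RPKM (SD, n = 3; adjusted p = 1.94e-05). VHL, the substrate receptor of the ligase that degrades HIF alpha, was slightly lower, with a log2 fold change of -0.23 (adjusted p = 0.00782). Of its ligase partners, TCEB2 (elongin B) was higher (log2 fold change 0.30, adjusted p = 0.0147), while TCEB1, CUL2 and RBX1 did not pass the test, at -0.03, -0.16 and -0.05. For TCEB2 the groups overlapped, with 131.2 RPKM in shLuc replicate 1 and 131.0 RPKM in shWDR5 replicate 3. P4HTM, a transmembrane prolyl hydroxylase, fell from 10.2 ± 0.89 to 6.46 ± 0.41 RPKM (SD, n = 3; adjusted p = 7.00e-05). EGLN2, the third member of the EGLN family, was listed at 0.37 and 0.31 RPKM. Because 86.0% of its exon bases are shared with the readthrough gene RAB4B-EGLN2, its level in these counts is uncertain.

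Among relatives of the hypoxia response genes, some were higher and some lower in shWDR5. Of 9 other VEGF ligands and receptors, 8 were tested, 1 was higher and 4 were lower. That is 12.5% and 50.0%, beside 26.6% and 29.9% of all genes tested. VEGFC, a ligand of lymphatic vessels, rose from 12.5 ± 0.54 to 22.7 ± 1.03 RPKM (SD, n = 3; log2 fold change 0.87, adjusted p = 2.18e-06). PGF, VEGFB and the coreceptors NRP1 and NRP2 were lower, with log2 fold changes of -1.24, -0.33, -0.44 and -0.28. The receptors FLT1, KDR and FLT4 had group means of 0.0571 to 0.123 RPKM and did not pass the test. Of 13 other carbonic anhydrases, only 7 were abundant enough to test, and 2 were higher and 3 lower (28.6% and 42.9%). Cytosolic CA2 was higher (log2 fold change 0.38, adjusted p = 0.00579), and CA11, which lacks enzyme activity, was lower (log2 fold change -0.85, adjusted p = 4.26e-05). CA8 was also called higher, on 10, 11 and 7 counts in shLuc and 31, 37 and 23 in shWDR5. It passed the filter on low counts through shWDR5, the group where it was higher.

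The adrenomedullin receptor CALCRL and its partners RAMP1, RAMP2 and RAMP3 were too low to be tested, and RAMP2 and RAMP3 had no count in any library. The related peptide gene ADM2 was slightly lower (log2 fold change -0.33, adjusted p = 0.0029). NDRG2, a paralog of NDRG1, fell from 3.46 ± 0.20 to 1.43 ± 0.15 RPKM (SD, n = 3; log2 fold change -1.27, adjusted p = 2.64e-06), and NDRG3 was lower by a log2 fold change of -0.17 (adjusted p = 0.0305). NDRG4 was at 0.22 and 0.29 RPKM and did not pass the test. BNIP3L, the closest paralog of BNIP3, was higher, at 22.2 ± 3.73 and 35.9 ± 6.34 RPKM (SD, n = 3), with a log2 fold change of 0.69 (adjusted p = 0.00168). In the list of BNIP3L and 11 other mitophagy genes, 11 were tested, 5 were higher and 3 lower. That is 45.5% and 27.3%, beside 26.6% and 29.9% of all genes tested. The autophagy adaptor SQSTM1 and the autophagosome proteins MAP1LC3B and GABARAPL1 were higher (log2 fold changes 0.71, 0.69 and 0.42), and CALCOCO2, FUNDC1 and GABARAPL2 were lower (-0.54, -0.32 and -0.21). SQSTM1 shares 21.7% of its exon bases with neighbouring genes.

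Other known HIF targets were mostly higher in shWDR5. Of 20 genes of glucose uptake and glycolysis, 13 were called higher, 2 lower and 5 were not called. Over all genes tested, 26.6% were called higher and 29.9% lower. The median log2 fold change of the 20 genes was 0.39. PFKFB4 and PFKFB3, which make the activator of phosphofructokinase, led the list with log2 fold changes of 1.18 ± 0.07 and 0.89 ± 0.05 (SE, adjusted p = 6.59e-07 and 5.84e-07). PGK1 rose from 221.1 ± 6.42 to 369.2 ± 9.96 RPKM (SD, n = 3) and ALDOA from 341.8 ± 19.1 to 500.04 ± 28.9 RPKM (SD, n = 3), enzymes of the lower and middle steps of the pathway. The 2 genes that fell were ENO2, the neuronal enolase, at -0.74, and PFKP, a phosphofructokinase, at -0.18 on the log2 scale.

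Of 50 further HIF targets with other functions, 47 were tested, 27 were higher, 5 were lower and 15 were not called. Their median log2 fold change was 0.30. The largest increases were those of STC2, a secreted glycoprotein, from 9.09 ± 0.45 to 30.2 ± 1.28 RPKM (SD, n = 3; log2 fold change 1.73), and of PPFIA4, a liprin, from 2.37 ± 0.06 to 6.77 ± 0.34 RPKM (SD, n = 3; log2 fold change 1.51). ANGPTL4, a secreted inhibitor of lipoprotein lipase, rose from 47.1 ± 1.73 to 113.0 ± 6.45 RPKM (SD, n = 3; log2 fold change 1.26). ANKRD37 was higher by a log2 fold change of 1.21, and shares 45.4% of its exon bases with UFSP2. The largest decreases were those of ZNF395, MAFF, RBPJ and PLAUR, the urokinase receptor, with log2 fold changes of -0.62, -0.56, -0.52 and -0.36. DDIT4, a stress-induced inhibitor of mTOR named here after its value was seen, was abundant and had a log2 fold change of 0.00 (adjusted p = 0.973). The 3 genes not tested, also named after their values were seen, were EPO, CXCR4 and MIF. MIF had no count in any library, and all of its exon bases are shared with MIF-AS1. These lists were chosen for known function but with earlier results of these data known. No test of a list against other genes was made. Over the 8 pathway lists together, 55 of the 115 genes tested were higher (47.8%) and 24 lower (20.9%), beside 26.6% and 29.9% of all genes tested.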

How the data were processed

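RNA-seq libraries (Illumina TruSeq) of 3 shLuc and 3 shWDR5 samples were analysed. Per the labels, the authors aligned reads with TopHat2 2.1.0 on hg19 and deposited raw counts per gene from featureCounts; whether strand was used is not given in the sources used here. The deposited table of edgeR 3.2.2 fold changes and p-values was not used. Counts were filtered with filterByExpr, scaled by TMM and tested with the edgeR 4.0.16 quasi-likelihood test (R 4.3.3), shWDR5 against shLuc without a block, with Benjamini-Hochberg adjustment over 16117 genes; the SE is the log2 fold change divided by the square root of F. RPKM used TMM-scaled library sizes and the deposited exon length. The script was tested on simulated data. Alternatives were DESeq2 1.42.0, other scalings, no filter, a replicate block, left-out libraries and a stricter rule. Named genes were the 10 genes and WDR5, genes of the regulator and family lists, and up to 4 genes in each direction of the mitophagy, glycolysis and other target lists, by size of change among those called and at 0.5 RPKM or more. The genes and lists were chosen with earlier results of these data known. Library totals were 38218108 to 57640167 counts, and the common biological coefficient of variation was 7.23%.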

Additional observations from a re-analysis of the deposited data

How the results depend on the processing

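Of the 10 hypoxia response genes, 9 were called under both scalings tried in edgeR, under DESeq2 and without the filter on low counts, 10 with the replicate block, and 9 to 10 when libraries were left out; no gene changed direction. Leaving out replicate 1 of both groups, whose libraries differed most from the others, was added after seeing the data and gave 10. The stricter rule, which demands more by construction, called 5 of the 10 genes, with EGLN3 meeting its level minimum only in shWDR5. HIF1A, VEGFA, CA9 and CA12 lost their calls. The rule called 31 of the 115 pathway list genes tested in place of 79. Of all 16117 genes tested it called 2962 (18.4%) in place of 9112 (56.5%). By direction it called 23 pathway list genes higher and 8 lower, beside 7.9% and 10.5% of all genes tested. Without this rule, the pathway list genes called ran from 72 to 77 and all genes called from 8120 to 8980 when libraries were left out. The WDR5 log2 fold change then ran from -1.20 to -1.09. Apart from the stricter rule, only NDRG1 changed its call among the 10 genes: its log2 fold change of 0.13 passed with the replicate block (adjusted p = 0.0147), and its adjusted p ran from 0.0431 to 0.23 over left-out libraries and was 0.304 with library totals in place of TMM; the cause was not tested. Deviations of same-numbered samples correlated at 0.37, 0.04 and 0.12, and those of differently numbered samples at -0.31 to 0.21. The numbers were not taken to pair the samples, though the value for replicate 1 was the highest. The block moved the calls over all genes to 10412. The difference in the log2 ratio of EGLN3 to EGLN1 was -0.26 with 0.5 RPKM added, and ran from -0.029 to 0.27 over left-out libraries, below 0 without shLuc replicate 2 (-0.029) or shWDR5 replicate 1 (-0.027). The ratios of EPAS1 to HIF1A and CA9 to CA12 ran from -1.09 to -1.001 and from 0.22 to 0.34. With 3 libraries a group, differences as small as that of NDRG1 lie at the limit of this test.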
